A study of Mus musculus with 12 samples.

Results

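The genes described here are the 35 phototransduction and photoreceptor genes of the mouse retina, taken by symbol from the 25655 genes counted in whole-retina RNA-seq. They hold 12 genes of rods, 10 genes of cones and 13 genes that both photoreceptor types use. The left optic nerve of C57BL/6J mice (C57BL/6 in the strain label), labelled as 8-10 weeks old, was crushed (optic nerve crush, ONC), and the eye then received a single intravitreal injection of PBS, fluvastatin, or matrix-bound nanovesicles (MBV). Fluvastatin is a statin, an inhibitor of the rate-limiting enzyme of cholesterol synthesis, and MBV are vesicles that were isolated from the extracellular matrix of porcine urinary bladder. Retinas were collected 2 days after ONC, with 3 libraries in each group. All of these groups carried the crush, so PBS is a control for the treatment and not for the injury. The series also has 3 libraries of retinas given both agents, which are not analysed here.

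Rods serve vision in dim light and cones serve daylight and colour vision. In both, light activates an opsin, the opsin activates the G protein transducin, and transducin switches on a phosphodiesterase that breaks down cyclic GMP. The fall of cyclic GMP closes cation channels in the outer segment, the stack of membranes that holds the opsin. Rods and cones use separate genes for most of these steps. Kinase, arrestin and calcium-binding proteins then shut the response off, and guanylate cyclases make new cyclic GMP. Crx, Nrl and Nr2e3 are transcription factors that switch photoreceptor genes on in rods and cones (Crx) or set the rod fate (Nrl and Nr2e3). ONC cuts the axons of retinal ganglion cells, the output neurons of the retina, and does not cut photoreceptors.

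The regulatory stretch in front of photoreceptor genes often carries the letters TAATCC, which Crx recognises. Of the 35 members, 25 had a promoter window in the RefSeq table (build GRCm38.p6, from 250 bases before to 50 bases after the start). The letters TAATCC, on either strand, were in the windows of 10 of these 25 members (40.0%) and of 8.14% of the 27025 genes with a window. They were in 4 of 9 rod, 1 of 6 cone and 5 of 10 shared members. The 10 were Abca4, Cnga1, Cngb1, Crx, Gnat2, Gngt1, Guca1a, Gucy2e, Gucy2f and Sag. TGCTGA, the start of the sequence that Nrl binds, was in 5 of 25 members (20.0%) and in 21.7% of all genes. The 250 bases before the start are shown for 3 rod genes that were called with fluvastatin. Sag and Gngt1 hold a match, and Nr2e3 holds none. Whether a match goes with the change of a gene was not tested. Capitals mark the match, which reads GGATTA where it lies on the other strand.
Sag (chr1:87803430-87803679, plus strand): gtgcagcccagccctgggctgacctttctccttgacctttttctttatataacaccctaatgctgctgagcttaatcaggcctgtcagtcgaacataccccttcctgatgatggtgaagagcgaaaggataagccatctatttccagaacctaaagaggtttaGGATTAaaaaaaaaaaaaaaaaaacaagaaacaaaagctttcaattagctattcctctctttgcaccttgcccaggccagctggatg
Gngt1 (chr6:3993758-3994007, plus strand): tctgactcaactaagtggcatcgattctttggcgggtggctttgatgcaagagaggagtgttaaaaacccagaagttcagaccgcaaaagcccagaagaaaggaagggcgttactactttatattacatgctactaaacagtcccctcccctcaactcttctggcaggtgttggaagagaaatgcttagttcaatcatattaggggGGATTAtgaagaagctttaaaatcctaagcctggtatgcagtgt
Nr2e3 (chr9:59950080-59950329, minus strand): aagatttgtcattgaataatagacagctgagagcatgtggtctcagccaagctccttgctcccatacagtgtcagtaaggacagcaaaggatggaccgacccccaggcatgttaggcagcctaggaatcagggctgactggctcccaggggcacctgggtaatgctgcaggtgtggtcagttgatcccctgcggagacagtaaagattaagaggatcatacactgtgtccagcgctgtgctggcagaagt
The first base of the match was 87 bases before the start of Sag and 44 bases before that of Gngt1. A match of letters is a description of the window and not a measured binding site.

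The libraries held from 21349516 to 30992040 counts assigned to genes. Values are given as counts per 1000000 (CPM) after TMM scaling, a scaling that sets the bulk of genes level between libraries. All 35 members were counted in every library, and the lowest count of any of them was 410, for Cnga3. Together the members took 4.87% ± 0.222 (SD, n = 3) of the counts with PBS, 4.63% ± 0.240 with fluvastatin and 4.15% ± 0.554 with MBV. Photoreceptor genes were abundant in all 9 libraries, as the retina label requires, and the summed CPM of the members ran from 35500.2 to 50946. In whole tissue, fewer cells of a type and less RNA per cell cannot be told apart. The labels do not say whether the libraries of a group came from separate mice, so the p-values measure the spread between these libraries.

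Both single treatments were compared to PBS across a border in the sample numbering. The library numbers run from 1 to 6 in 2 sets, and PBS lies in the first set while fluvastatin and MBV lie in the second. Set and treatment cannot be told apart in either comparison to PBS. Only MBV against fluvastatin lies within a set. Within the groups, the libraries also differed in their photoreceptor genes as a block. MBV replicate 3 had the highest value of its group for 32 of 35 members, and MBV replicate 2 the lowest for 30. PBS replicate 2 was highest for 30 and PBS replicate 3 lowest for 30, and fluvastatin replicate 3 was lowest for 27. The members of a library therefore do not give independent readings, and the calls that change without MBV replicate 3 are given with and without it. That replicate was singled out by its high values for these same members. Lower calls made without it largely follow from that choice and are not support for a change. Leaving out MBV replicate 2, the other extreme, gave 8 calls against PBS and added Nr2e3 and Rcvrn, both higher.

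**Figure D1:**
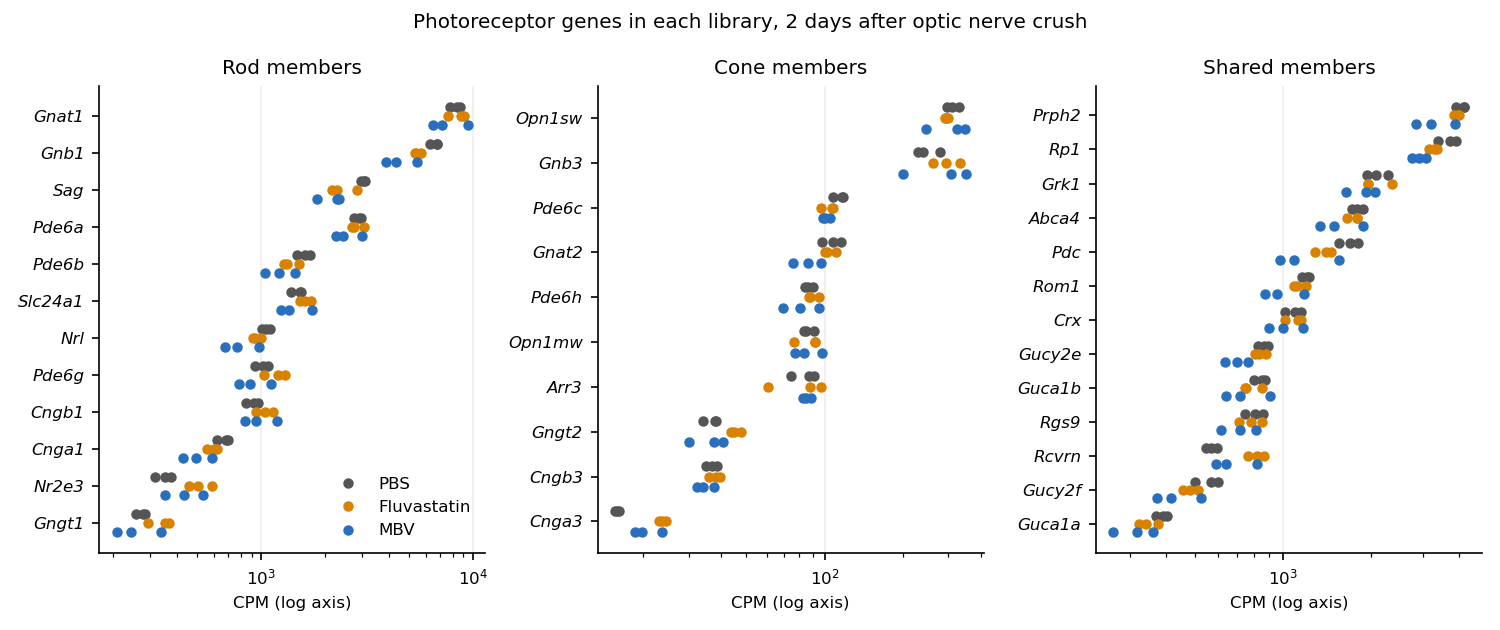
CPM of each member in each of the 9 libraries, on a log axis, with rod, cone and shared members in separate panels and 3 points per group. The rod gene Gnat1 had the highest values, from 6434 to 9428 CPM, and the cone gene Cnga3 was the lowest, with PBS between 15.6 and 16.1 CPM and both treatments above it.

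In PBS retinas, the rod genes were far more abundant than their cone counterparts. Scaled by transcript length, Gnat1, the rod transducin alpha subunit, had the highest level of the members (3554 ± 184 CPM per kb, SD, n = 3). Gnb1, a beta subunit that rods use and many other cells also express, followed with 2074 ± 82.0 CPM per kb. Sag, the rod arrestin, came next with 1764 ± 36.9, then Prph2, a structural protein of the outer segment rim, with 1530.4 ± 60.0, and Pdc (phosducin, which binds transducin beta and gamma) with 1366 ± 105 CPM per kb. Among cone genes, Gnb3 (135 ± 14.3) and Opn1sw (129 ± 6.67), the short-wavelength cone opsin, differed by less than their spread. Opn1mw, the middle-wavelength cone opsin, reached 70.5 ± 3.19 CPM per kb and Arr3, the cone arrestin, 62.0 ± 6.43, and these overlapped within 1 SD. The lowest level was that of Cnga3, the alpha subunit of the cone channel (3.01 ± 0.0477 CPM per kb).

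Between the fluvastatin and PBS retinas, 8 of the 35 members differed, a share near that of all genes, in both directions and by less than 2-fold. In the fluvastatin retinas, 5 members were higher and 3 were lower at a false discovery rate (FDR) under 0.05 in the edgeR quasi-likelihood test with Benjamini-Hochberg adjustment. This is 22.9% of the members, beside 19.6% of the 18818 genes tested (9.36% higher and 10.2% lower). The higher members were Rcvrn, Cnga3, Nr2e3, Gngt2 and Gngt1, and the lower members were Gnb1, Pdc and Sag. The median log2 fold change was 0.01 over the rod members, 0.03 over the cone members and -0.05 over the shared members, beside -0.01 over all genes. The remaining 27 members did not pass the test. Rcvrn, Cnga3, Nr2e3 and Gngt2 passed whichever replicate was left out. Without PBS replicate 1 these 4 were the only members called, beside 9.26% of all genes. Without fluvastatin replicate 1 there were 14, of which 9 were lower, beside 23.5% of all genes. How the members compared with all genes depended on the setting. DESeq2 called 16 of 35 members beside 18.9% of all genes, and 1 fit of all 9 libraries called 4 beside 18.4%. With a minimum of 10 counts in 2 libraries, which leaves out genes with few counts, the same 8 members were called beside 24.5%. Over the 14 alternative settings, Gnb1 passed in 12, Pdc in 11, Gngt1 in 10 and Sag in 8.

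With MBV, most of the members that passed the test were lower. Relative to PBS, 13 of 35 members were lower and 1 was higher with MBV, which is 40.0% of the members beside 26.1% of the 18897 genes tested (14.1% lower and 12% higher). The higher member was Cnga3. The lower members were Sag, Gnb1, Rp1, Gucy2e, Cnga1, Pde6c, Nrl, Pde6b, Gnat2, Pdc, Guca1a, Prph2 and Gucy2f. The median log2 fold change was -0.15 over rod, -0.03 over cone and -0.27 over shared members, with 0.01 over all genes. The genes tested include many with few counts, whereas every member was well counted. With a minimum of 10 counts in 2 libraries, 10 of 35 members passed, beside 33.1% of all genes. The share of members was then not above that of all genes. Without MBV replicate 3, 27 of 35 members passed (25 lower and 2 higher), beside 30.1% of all genes. Leaving out PBS replicate 1, PBS replicate 2 or MBV replicate 1 gave 5 members in each case, beside 14.5%, 18.5% and 18.2% of all genes. In those runs the share of members was not above that of all genes. Without PBS replicate 3 there were 10, beside 22.1%. Leaving out MBV replicate 2 gave 8 (5 lower and 3 higher), beside 19.3%. Of these, Nr2e3 and Rcvrn were higher and were not called with all libraries. Sag, Gnb1, Rp1 and Gucy2e passed whichever replicate was left out, and Cnga3 failed only without PBS replicate 1 (FDR 0.0611). Over the 14 alternative settings, Cnga1 passed in 10, Nrl, Pde6b and Pde6c in 9, Gnat2 in 8, Prph2 in 7, Guca1a and Gucy2f in 6 and Pdc in 5. No member reached a 2-fold change in any comparison, whereas 1.17% of all genes did so at this FDR with fluvastatin, 1.95% with MBV and 0.0107% between MBV and fluvastatin.

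**Figure D2:**
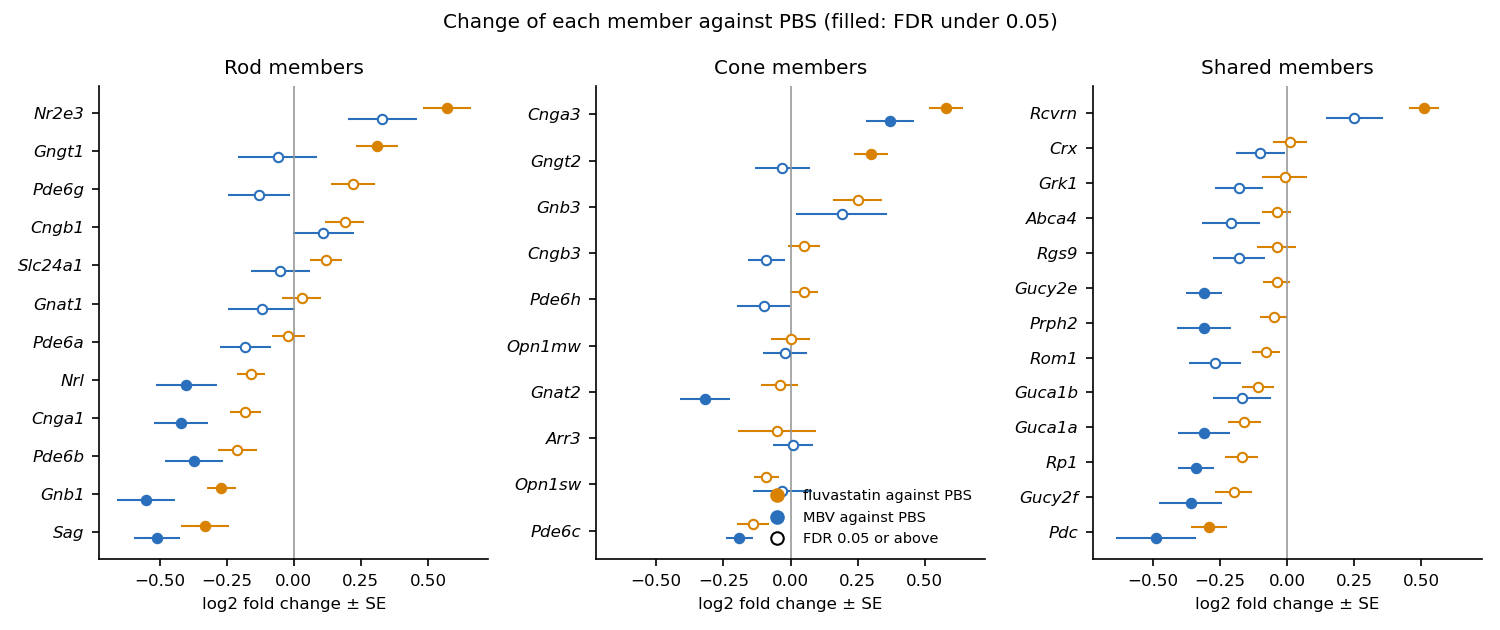
Log2 fold change against PBS with its standard error for each member, with fluvastatin in orange and MBV in blue, in panels for rod, cone and shared members (n = 3 libraries per group). Filled points passed FDR 0.05. The orange points spread to both sides of 0, from -0.33 for Sag to 0.58 for Cnga3, and the blue points lie below 0 for 29 of 35 members.

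The cone opsins, which catch the light, did not pass the test with either agent. Opn1sw had 329, 309.9 and 297 CPM with PBS, 298, 293 and 292 CPM with fluvastatin, and 348, 247 and 325 CPM with MBV. The groups overlapped, and the log2 fold change was -0.09 ± 0.0462 (SE) with fluvastatin and -0.03 ± 0.109 with MBV. Opn1mw had 83.6, 91.0 and 85.0 CPM with PBS, 76.5, 92.1 and 92.0 CPM with fluvastatin, and 76.9, 83.6 and 98.1 CPM with MBV. Its log2 fold changes were 0.00 ± 0.0735 and -0.02 ± 0.0828. The ratio of Opn1sw to Opn1mw counts was 3.61 ± 0.278 with PBS, 3.42 ± 0.416 with fluvastatin and 3.60 ± 0.822 with MBV (SD, n = 3), and these ranges overlapped. The annotation places Calu over part of Opn1sw on the opposite strand, and strand-aware counting is not stated, so reads of the overlap could have been shared.

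Of the 6 transducin subunits, which carry the signal from opsin to phosphodiesterase, 2 rose and 1 fell with fluvastatin, and 2 fell with MBV (over all genes, 9.36% rose and 10.2% fell with fluvastatin, and 14.1% fell with MBV). Gnat1 had 8387, 8632 and 7800.2 CPM with PBS, 9062, 8759 and 7603 CPM with fluvastatin, and 7133, 6434 and 9428 CPM with MBV. The 3 groups overlapped, and its log2 fold change was 0.03 ± 0.0733 (FDR 0.789) with fluvastatin and -0.12 ± 0.125 (FDR 0.520) with MBV. MBV replicate 3 held the highest Gnat1 value of all 9 libraries and MBV replicate 2 the lowest. Without MBV replicate 3 the log2 fold change of Gnat1 against PBS was -0.30 (FDR 0.00233), and over the 14 alternative settings it ran from -0.30 to -0.01. Its cone counterpart Gnat2 had 108, 116 and 98.1 CPM with PBS, 100.2, 111 and 102 CPM with fluvastatin, and 86.6, 75.6 and 97.1 CPM with MBV. Every MBV value lay below every PBS value, and Gnat2 fell with MBV (log2 fold change -0.32 ± 0.0928, FDR 0.0320) while its change with fluvastatin was -0.04 ± 0.0681 (FDR 0.733).

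Among the beta and gamma subunits, Gnb1 had 6731, 6731 and 6281 CPM with PBS, 5365, 5681 and 5309 CPM with fluvastatin, and 4311, 3883 and 5419 CPM with MBV. All 6 treated values were below all PBS values, and Gnb1 fell 1.21-fold with fluvastatin (log2 fold change -0.27 ± 0.0544, FDR 0.00707) and 1.46-fold with MBV (-0.55 ± 0.109, FDR 0.00674). Gngt1, the rod gamma subunit, had 276, 284 and 256 CPM with PBS, 351, 368 and 292 CPM with fluvastatin, and 242, 208 and 338 CPM with MBV. It rose 1.24-fold with fluvastatin, without overlap with PBS (0.31 ± 0.0784, FDR 0.0211), whereas its MBV values lay on both sides of PBS (-0.06 ± 0.146, FDR 0.790, and -0.28, FDR 0.00769 without MBV replicate 3). Over the alternative settings, the log2 fold change of Gngt1 ran from -0.28 to 0.30 with MBV and from 0.24 to 0.62 with fluvastatin. Gngt2, the cone gamma subunit, had 38.0, 38.1 and 34.0 CPM with PBS, 44.9, 47.5 and 43.5 CPM with fluvastatin, and 37.6, 30.1 and 40.8 CPM with MBV. Gngt2 rose 1.23-fold with fluvastatin (0.30 ± 0.0633, FDR 0.00894) and had a log2 fold change of -0.03 ± 0.104 with MBV (FDR 0.856). Gngt2 shares part of its locus with Abi3 on the opposite strand.

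Gnb3, the cone beta subunit, which ON bipolar cells also express, did not follow the other members across libraries. It had 230.0, 239 and 279.5 CPM with PBS, 293, 262 and 334 CPM with fluvastatin, and 307, 351 and 201 CPM with MBV. MBV replicate 3, highest for 32 members, was the lowest of its group for Gnb3, and MBV replicate 2 was the highest. Its log2 fold change was 0.25 ± 0.0903 (FDR 0.0819) with fluvastatin and 0.19 ± 0.169 (FDR 0.455) with MBV, and without MBV replicate 3 the latter was 0.39 (FDR 0.00235). The 9 bipolar cell markers fixed as a list had summed levels of 1626 to 1880.1 CPM with PBS, 1521 to 1772 CPM with fluvastatin and 1463 to 1793 CPM with MBV, with 2 and 1 of 9 lower in the comparisons to PBS and none higher. Their part in the Gnb3 values was not tested.

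Of the 5 phosphodiesterase genes, none passed the test with fluvastatin (19.6% of all genes did), and Pde6b and Pde6c were lower with MBV (14.1% of all genes were). Pde6b, a catalytic subunit of rods, went from 1469.8 to 1695 CPM with PBS to between 1046 and 1449 CPM with MBV (-0.37 ± 0.108, FDR 0.0316). Pde6c, the cone catalytic subunit, had 108, 118 and 117 CPM with PBS, 107, 96.6 and 108 CPM with fluvastatin, and 98.4, 100.4 and 105 CPM with MBV, a small but even drop (-0.19 ± 0.0505, FDR 0.0249). The inhibitory subunits hold the enzyme off in the dark. The rod inhibitory subunit Pde6g had 1021, 1072 and 929.7 CPM with PBS, 1301, 1195 and 1036 CPM with fluvastatin, and 885, 782 and 1117 CPM with MBV. It did not pass the test with fluvastatin (0.22 ± 0.0817, FDR 0.0835) or MBV (-0.13 ± 0.116, FDR 0.465), and without MBV replicate 3 the latter was -0.28 (FDR 0.00802). Its cone counterpart Pde6h, which overlaps Arhgdib on the opposite strand, had 84.1, 90.6 and 86.5 CPM with PBS, 88.0, 94.9 and 87.5 CPM with fluvastatin, and 80.2, 69.4 and 95.4 CPM with MBV, and the groups overlapped. Its log2 fold change with MBV was -0.10 ± 0.0983, or -0.23 (FDR 0.0219) without MBV replicate 3, and it ran from -0.23 to 0.00 over the 14 alternative settings. Pde6a, the other rod catalytic subunit, ranged from 2242 to 3071 CPM over the 9 libraries with FDR 0.859 and 0.216, and without MBV replicate 3 its change with MBV was -0.30 (FDR 0.00106).

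With MBV, the alpha subunits of the rod and cone channels moved in opposite directions. Cnga3, the alpha subunit of the cyclic GMP-gated channel of cones, had 15.9, 16.1 and 15.6 CPM with PBS, 24.6, 23.7 and 23.1 CPM with fluvastatin, and 18.6, 19.8 and 23.7 CPM with MBV. All treated values exceeded all PBS values, and Cnga3 rose 1.50-fold with fluvastatin (0.58 ± 0.0642, FDR 7.39e-04) and 1.29-fold with MBV (0.37 ± 0.0905, FDR 0.0162). Cnga1, the rod alpha subunit, had 682, 697 and 620.1 CPM with PBS, 619, 598 and 554 CPM with fluvastatin, and 491, 429 and 585 CPM with MBV. It fell with MBV (-0.42 ± 0.101, FDR 0.0153), and with fluvastatin its change of -0.18 ± 0.0592 did not pass (FDR 0.0624) although the values did not overlap PBS. Counts of Cnga3 amounted to 2.38% ± 0.112 of those of Cnga1 with PBS, 4.03% ± 0.116 with fluvastatin and 4.15% ± 0.424 with MBV (SD, n = 3), and neither treated group overlapped PBS. The beta subunits did not show this, since Cngb3 amounted to 4.04% ± 0.197 of Cngb1 with PBS, 3.66% ± 0.260 with fluvastatin and 3.53% ± 0.343 with MBV, with overlap. Cngb1, Cngb3 and the rod exchanger Slc24a1, which carries calcium out of the outer segment, passed the test in neither comparison to PBS, with log2 fold changes between -0.09 and 0.19, although Slc24a1 was lower with MBV without MBV replicate 3 (-0.21, FDR 0.0200).

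The remaining pairs of cone and rod genes differed in how they shifted. Counts of Gnb3 were 3.81% ± 0.563 of those of Gnb1 with PBS, 5.46% ± 0.845 with fluvastatin, without overlap, and 6.63% ± 2.70 with MBV, with overlap, where MBV replicate 3 was at 3.72% and MBV replicate 2 at 9.05%. Pde6h amounted to 8.67% ± 0.568 of Pde6g with PBS, 7.72% ± 0.862 with fluvastatin and 8.82% ± 0.264 with MBV, and both treated groups overlapped PBS. Counts of Gnat2 were 1.30% ± 0.0461 of Gnat1 with PBS and 1.14% ± 0.0974 with MBV, without overlap, and 1.24% ± 0.123 with fluvastatin, with overlap. Arr3 was 2.79% ± 0.288 of Sag with PBS, 3.50% ± 1.18 with fluvastatin and 4.03% ± 0.531 with MBV, and only MBV was free of overlap with PBS. The gamma subunits stayed close together, with Gngt2 at 13.5% ± 0.245 of Gngt1 with PBS, 13.5% ± 1.18 with fluvastatin and 14.0% ± 1.77 with MBV. Summed over members, cone genes had 1130.3 ± 14.4 CPM with PBS, 1165 ± 38.5 CPM with fluvastatin and 1126 ± 39.6 CPM with MBV. Rod genes summed to 28087 ± 1257, 26771 ± 1833 and 23509 ± 4159 CPM in the same order, and the MBV spread was the widest. MBV replicate 3 alone reached 28087 CPM, within the PBS range of 26698 to 29148, and MBV replicate 2 was at 19962 CPM.

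Of the 6 genes that end the light response, Rcvrn rose with fluvastatin, and Sag and Pdc fell with both agents (over all genes, 9.36% rose and 10.2% fell with fluvastatin, and 14.1% fell with MBV). Sag, the arrestin that binds activated rod opsin, had 2964, 3089.7 and 3041 CPM with PBS, 2830.3, 2272 and 2154 CPM with fluvastatin, and 2271, 1831 and 2325 CPM with MBV. No treated value reached the PBS values, and Sag fell 1.25-fold with fluvastatin (-0.33 ± 0.0882, FDR 0.0264) and 1.42-fold with MBV (-0.51 ± 0.0856, FDR 0.00314). The fluvastatin call was lost in 6 of 14 alternative settings and the MBV call in none of 14. Arr3, the cone arrestin, had 87.3, 91.4 and 74.6 CPM with PBS, 60.5, 97.2 and 87.7 CPM with fluvastatin, and 82.5, 84.8 and 88.8 CPM with MBV. Fluvastatin replicate 1 was the lowest of all, the groups overlapped, and the log2 fold changes were -0.05 ± 0.144 and 0.01 ± 0.0749.

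Rcvrn (recoverin, the calcium sensor that restrains the opsin kinase) had 569, 596 and 546 CPM with PBS, 859.9, 818 and 762 CPM with fluvastatin, and 638, 593 and 819 CPM with MBV. The fluvastatin values stood clear of PBS, and Rcvrn rose 1.42-fold (0.51 ± 0.0559, FDR 7.20e-04), the smallest FDR of the members. With MBV it overlapped PBS (0.25 ± 0.105, FDR 0.114), although it was called higher without MBV replicate 2 and with DESeq2. Glp2r lies over Rcvrn on the opposite strand, and reads of the pair could have been shared. Pdc had 1698, 1811 and 1553 CPM with PBS, 1401, 1462 and 1292 CPM with fluvastatin, and 1089.9, 982 and 1560.1 CPM with MBV. It fell with fluvastatin (-0.29 ± 0.0670, FDR 0.0145) and with MBV (-0.49 ± 0.149, FDR 0.0391), where MBV replicate 3 alone overlapped PBS. The fluvastatin call of Pdc was lost in 3 of 14 alternative settings and its MBV call in 9, DESeq2 among them, and with the GC and length correction its fluvastatin change was -0.06. Grk1, the opsin kinase, and Rgs9, which speeds the shut-off of transducin, did not pass in either comparison. Without MBV replicate 3 both were lower with MBV (Grk1 -0.25, FDR 0.0269, and Rgs9 -0.28, FDR 0.0118).

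Of the 4 genes that restore cyclic GMP, 3 fell with MBV and none passed the test with fluvastatin, beside 14.1% of all genes lower with MBV and 19.6% called with fluvastatin. Gucy2e and Gucy2f encode the guanylate cyclases, and Guca1a and Guca1b the calcium-sensing proteins that control them. Gucy2e had 862, 889 and 826 CPM with PBS, 875, 832 and 801 CPM with fluvastatin, and 696, 637 and 760.2 CPM with MBV. Its MBV values lay below all others, and it fell against PBS (-0.31 ± 0.0661, FDR 0.00919) in all 14 alternative settings. Gucy2f (-0.36 ± 0.117, FDR 0.0487) and Guca1a (-0.31 ± 0.0981, FDR 0.0456) fell with MBV close to the threshold, each passing in 6 of 14 alternatives, and Guca1b did not pass (-0.17 ± 0.108, FDR 0.294, and -0.32, FDR 0.00134 without MBV replicate 3). With fluvastatin, the log2 fold changes of these 4 genes were between -0.20 and -0.04 (smallest FDR 0.0630).

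Of the transcription factors, Nr2e3 rose with fluvastatin and Nrl fell with MBV. Nr2e3 had 352, 376 and 317 CPM with PBS, 587, 505 and 456 CPM with fluvastatin, and 434, 353 and 534 CPM with MBV. It rose 1.48-fold with fluvastatin, with every value above PBS (0.57 ± 0.0895, FDR 0.00262), and did not pass with MBV (0.33 ± 0.129, FDR 0.0941). Without MBV replicate 2, Nr2e3 was called higher with MBV (FDR 0.0113). Nrl, which acts upstream of Nr2e3 in rod development, had 1058, 1099 and 1009 CPM with PBS, 918, 995 and 932 CPM with fluvastatin, and 765, 675 and 973 CPM with MBV. Nrl fell with MBV (-0.40 ± 0.113, FDR 0.0297), and with fluvastatin its change of -0.16 ± 0.0513 did not pass (FDR 0.0583). Crx had 1104, 1152 and 1019 CPM with PBS, 1151, 1128 and 1018 CPM with fluvastatin, and 1005, 894 and 1168 CPM with MBV. The Crx groups overlapped, with log2 fold changes of 0.01 ± 0.0625 and -0.10 ± 0.0914, the latter -0.21 (FDR 0.0254) without MBV replicate 3.

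Of the 4 outer segment genes, Rp1 and Prph2 fell with MBV, beside 14.1% of all genes. Rp1, a microtubule protein that orders the outer segment discs, had 3715, 3908 and 3396 CPM with PBS, 3355, 3169 and 3282 CPM with fluvastatin, and 3077, 2756 and 2909.7 CPM with MBV. The 3 groups did not overlap, and Rp1 fell with MBV (-0.34 ± 0.0687, FDR 0.00685) but did not pass with fluvastatin (-0.17 ± 0.0605, FDR 0.0761). Rp1 was lower with MBV than with fluvastatin in every library, yet that difference did not pass either (-0.17 ± 0.0659, FDR 0.426). Prph2 fell with MBV (-0.31 ± 0.0998, FDR 0.0461), a call lost in 7 of 14 alternative settings. Its partner Rom1 (-0.27 ± 0.0962, FDR 0.0661) and Abca4, the retinoid transporter of the disc rim (-0.21 ± 0.107, FDR 0.196), did not pass. Without MBV replicate 3 they were lower (Rom1 -0.41, FDR 1.62e-04, and Abca4 -0.35, FDR 6.92e-04). With fluvastatin, Prph2, Rom1 and Abca4 had log2 fold changes between -0.08 and -0.04.

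**Figure D3:**
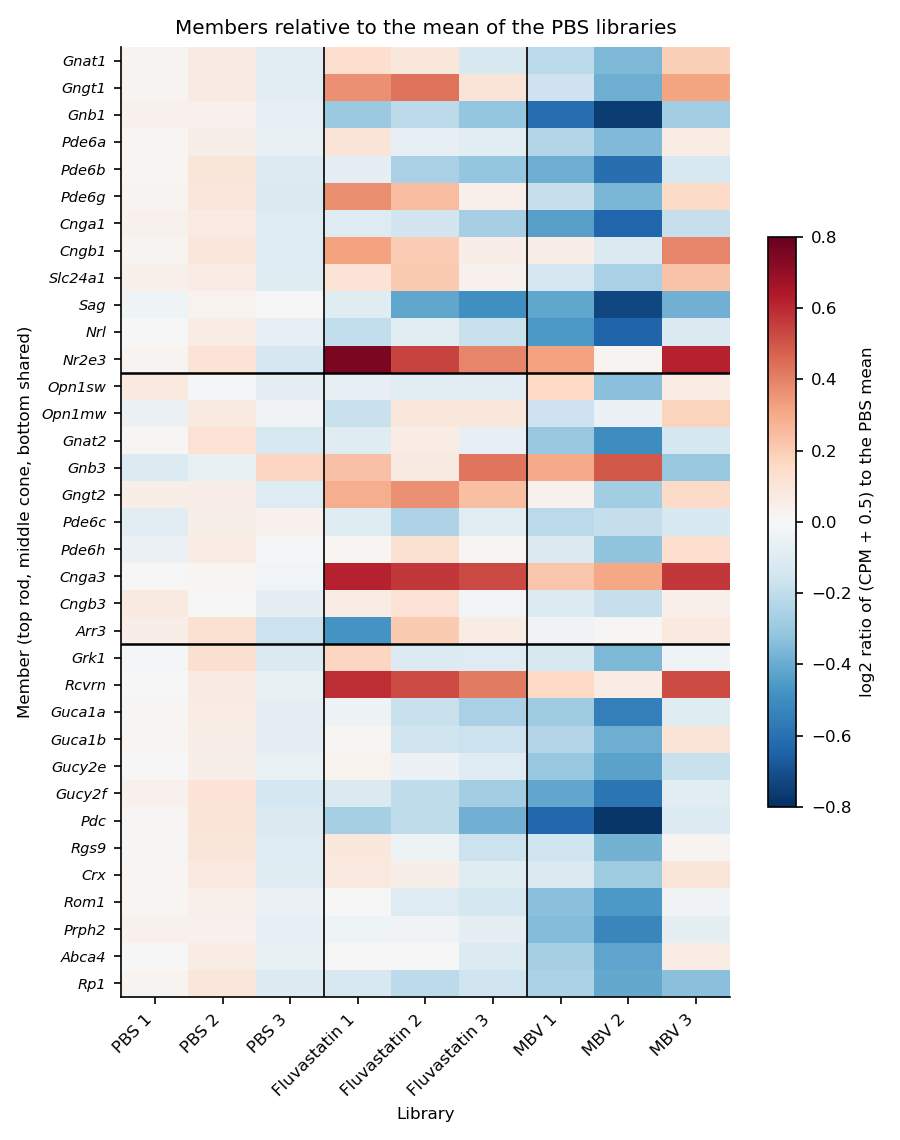
Log2 ratio of each member's CPM (plus 0.5) in each library to the mean of the PBS libraries, with rod members at the top, cone members in the middle and shared members at the bottom, red above and blue below PBS. Cnga3, Nr2e3 and Rcvrn form red rows with fluvastatin, and MBV replicate 2 is blue for most members while MBV replicate 3 is not.

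The direct comparison of MBV with fluvastatin, the only pair within a set of library numbers, gave 0 of 35 members at FDR under 0.05 by edgeR (smallest FDR 0.300), beside 0.0588% of the 18721 genes tested (0.0267% higher and 0.0320% lower). At an unadjusted p under 0.05 there were 10 members and 2001 genes, and DESeq2 called 1 member, Gucy2e. Of the members, 33 had a log2 fold change below 0, with medians of -0.20 for rod, -0.09 for cone and -0.16 for shared members beside 0.01 for all genes. The values furthest below 0 were those of Gngt1 (-0.36 ± 0.156, FDR 0.455), Pde6g (-0.34 ± 0.126, FDR 0.409) and Gngt2 (-0.32 ± 0.0995, FDR 0.336). Without MBV replicate 3, 10 members were lower, beside 1.06% of all genes. They were Gngt1, Rcvrn, Gnb1, Pdc, Nrl, Prph2, Pde6g, Gucy2e, Gnat2 and Cnga1.

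Each MBV library held a different level of photoreceptor genes. Relative to the PBS mean, the median log2 ratio of rod members was -0.22 in MBV replicate 1, -0.38 in replicate 2 and 0.11 in replicate 3. The shared members had medians of -0.27, -0.42 and -0.03 in the same libraries, and the cone members -0.07, -0.19 and 0.07. MBV replicate 3 was thus close to or above PBS in all 3 classes, and the other two MBV libraries were below. In the fluvastatin libraries the rod medians were 0.10, 0.01 and -0.11, and in the PBS libraries 0.02, 0.06 and -0.09.

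Both comparisons to PBS share the same PBS libraries, so their values are given side by side and no overlap is drawn from them. Cnga3 was higher with both agents (0.58 and 0.37), and Gnb1 (-0.27 and -0.55), Pdc (-0.29 and -0.49) and Sag (-0.33 and -0.51) were lower with both, fluvastatin first. Gngt1, Gngt2, Nr2e3 and Rcvrn passed with fluvastatin alone, and 10 members passed with MBV alone. The difference between the agents did not pass the test for any of these. The 17 members that passed in neither comparison were Abca4, Arr3, Cngb1, Cngb3, Crx, Gnat1, Gnb3, Grk1, Guca1b, Opn1mw, Opn1sw, Pde6a, Pde6g, Pde6h, Rgs9, Rom1 and Slc24a1. Over the 35 members, the log2 fold change had a Pearson correlation of 0.16 with transcript GC content for fluvastatin and 0.20 for MBV, and of -0.09 and -0.06 with log2 transcript length. These correlations are descriptions across genes of the same libraries. Single members did depend on the GC and length correction. With it, Rp1, Cnga1, Pde6c, Gnat2, Pdc, Guca1a and Gucy2f were no longer called with MBV, and Rom1 was called lower. With fluvastatin, Pdc was no longer called, and Cngb3 (higher) and Nrl (lower) were.

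A further 36 photoreceptor genes, none of them among the 35, moved in both directions too. With fluvastatin 6 were higher and 4 lower (27.8% called beside 19.6% of all genes, median log2 fold change 0.05), with MBV 2 were higher and 6 lower (22.2% beside 26.1% of all genes, median -0.04), and between the agents none of 36 passed (11 of 18721 genes did). Unc119, a carrier of lipid-modified transducin, fell with MBV (-0.38 ± 0.0841, FDR 0.0107), as did Nxnl2, a thioredoxin-like factor (-0.42 ± 0.0993, FDR 0.0138). Cdhr1, a cadherin of the outer segment base, rose with fluvastatin (0.30 ± 0.0451, FDR 0.00225), as did Rdh8, which reduces the spent retinal chromophore (0.39 ± 0.0677, FDR 0.00387), while Rorb, a nuclear receptor of the rod lineage, fell (-0.25 ± 0.0512, FDR 0.00771). Cdhr1 and Rdh8 were also the 2 genes called higher with MBV. Mean CPM with PBS and MBV was 1199 and 1510.2 for Cdhr1, and 63.4 and 75.1 for Rdh8.

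Genes of neighbouring cells also passed the test in the comparisons to PBS, where 9.36% of all genes were higher and 10.2% lower with fluvastatin, and 12% higher and 14.1% lower with MBV. Of 9 Müller glia markers, 8 were lower with fluvastatin and 4 with MBV, and their sum was 4111 to 4770.2 CPM with PBS, 2164 to 3763 CPM with fluvastatin and 1993 to 3803 CPM with MBV. MBV replicate 3 had the highest sum of its group there as well, and MBV replicate 2 the lowest. Of 12 markers of the pigment epithelium, the pigmented layer behind the photoreceptors, 5 were lower with each agent, and 3 were higher with fluvastatin and 1 with MBV. Pmel, a melanosome protein, had 20.8, 16.3 and 20.4 CPM with PBS and fell with fluvastatin (-2.01 ± 0.126, FDR 9.23e-05) and MBV (-2.44 ± 0.185, FDR 3.07e-04), whereas Rpe65, the visual cycle isomerase of that layer, did not pass (FDR 0.122 and 0.520). The summed pigment epithelium level was 169 to 199 CPM with PBS, 118 to 174 CPM with fluvastatin and 92.1 to 182 CPM with MBV. Lens markers rose with MBV for 7 of 8 genes, and their sum was 1.60 to 6.40 CPM with PBS, 2.37 to 20.8 CPM with fluvastatin and 61.6 to 154 CPM with MBV, with Crygs at 0 counts in PBS replicate 3. Of 5 blood genes 3 rose with each agent. Of the other lists, 3 of 8 ganglion cell, 2 of 9 amacrine and horizontal cell and none of 8 microglia and macrophage markers were higher with fluvastatin, and 0, 1 and 0 were with MBV, with none lower. Of 5 endothelial markers, Flt1 was lower with fluvastatin and Cdh5 higher with MBV, and of the lens markers Bfsp2 was lower with fluvastatin. The part of these cells in the photoreceptor results was not tested.

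**Figure D4:**
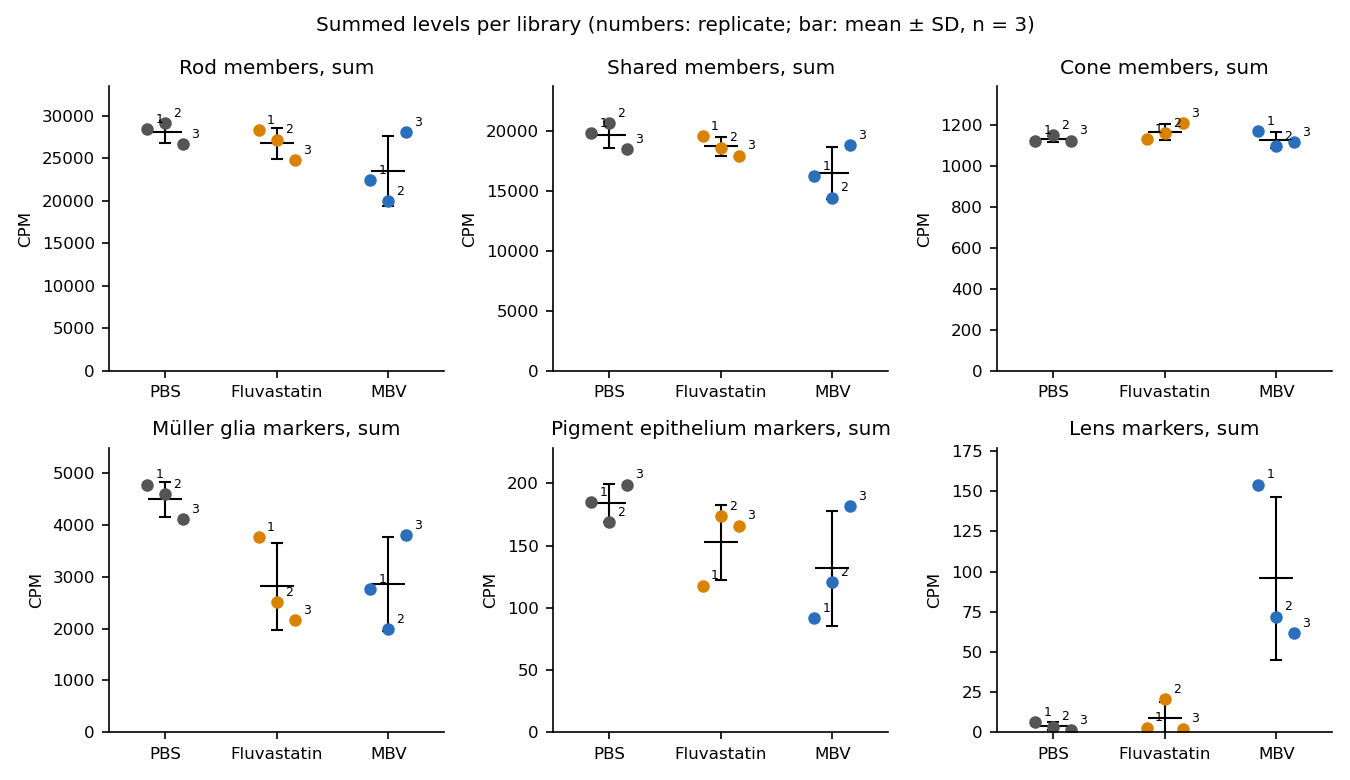
Summed CPM in each library for rod, shared and cone members (top) and for Müller glia, pigment epithelium and lens markers (bottom), with points numbered by replicate and bars giving the mean and SD of 3 libraries. Axes start at 0. The cone sums of the groups overlap, the rod and shared sums are widest spread with MBV, and lens sums are high in the 3 MBV libraries, from 61.6 to 154 CPM.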

How the data were processed

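Whole retinas were profiled by total RNA-seq (TruSeq Total RNA kit, NextSeq500, paired 75-base reads). Per the labels and the methods, the authors mapped reads to GRCm39 with CLC Genomics Workbench 22.0.2 and deposited raw total counts per gene, with no normalization; strand use is not given in the sources used here. The 4 deposited tables also hold the authors' own comparison columns (fold changes, log2 fold changes, p-values, FDR and Bonferroni values), which were not used. In the table of the combined treatment, 6 count columns could not be tied to a library by name, so that treatment and effects balanced over the sets of library numbers were not analysed. For 9 libraries (3 groups of 3, 21349516 to 30992040 counts), genes detected (1 count or more) in any of the 6 libraries of a comparison were fitted with edgeR 4.0.16 (TMM, quasi-likelihood test, Benjamini-Hochberg over all genes, FDR under 0.05). Log2 fold changes carry SEs derived from the fit, and the coefficient of variation between replicates was 7.78% (fluvastatin against PBS), 8.57% (MBV against PBS) and 10.1% (MBV against fluvastatin). Alternatives were DESeq2 1.42.0, RLE and library size scaling, TMM from genes other than members, a minimum of 10 counts in 2 libraries, 1 fit of all 9 libraries, a replicate block, each replicate left out, and a GC and length correction chosen after seeing the data. The fit was tested on simulated counts. Gene positions and lengths came from GENCODE M39, promoters from RefSeq. Values were given in every library for 12 members fixed by name and for those called with the smallest FDR (at most 12), and for other lists for at most 4 genes per comparison; some items that this rule names are not reported here. The 35 members and all marker lists were chosen with earlier results of these data known. TMM scaling left the median log2 fold change of all genes between -0.01 and 0.01.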

Additional observations from a re-analysis of the deposited data

How the results depend on the processing

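The number of members called depended on the fit. Against PBS, fluvastatin gave 8 members in edgeR, beside 19.6% of all genes. DESeq2 gave 16 (8 higher, 8 lower, beside 18.9%), the GC and length correction 9 (beside 10.8%) and 1 fit of all 9 libraries 4 (beside 18.4%). The minimum of 10 counts gave 8 (beside 24.5%). Leaving out a replicate gave 4 to 14, with 4 without PBS replicate 1 (beside 9.26%) and 14 without fluvastatin replicate 1 (beside 23.5%). Rcvrn, Cnga3, Nr2e3 and Gngt2 passed in all 14 alternatives. MBV against PBS gave 14 members, beside 26.1% of all genes. The GC and length correction gave 8 (beside 18.0%) and the minimum of 10 counts gave 10 (beside 33.1%). Leaving out a replicate gave 5 to 27, with 5 without PBS replicate 1 (beside 14.5%) and 27 without MBV replicate 3 (beside 30.1%). Sag, Gnb1 and Gucy2e passed in all 14 alternatives, and Cnga3 and Rp1 in 13. MBV against fluvastatin gave 0 members (beside 0.0588% of all genes) and 1 with DESeq2 (Gucy2e, beside 0.652%). Leaving out a replicate gave 0 to 10, where the 10 came without MBV replicate 3 (beside 1.06%). The median log2 fold change of the cone members, 0.03 with fluvastatin and -0.03 with MBV, ranged over left-out replicates from -0.01 to 0.08 and from -0.12 to 0.01. The rod median lay between -0.05 and 0.06 with fluvastatin (0.01 with all libraries), between -0.30 and -0.05 with MBV (-0.15) and between -0.34 and -0.08 for MBV against fluvastatin (-0.20). The shared median lay between -0.11 and -0.03, between -0.35 and -0.18 and between -0.30 and -0.06 in that order. No called member changed sign in any alternative run; the cause of the other shifts was not tested. The RLE, library size and minimum-count settings, and TMM from genes other than members, kept each count within 1.5 times.

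The same replicate numbers did not pair the libraries, since the correlations of their deviations from the group means ran from -0.37 to 0.16. With the replicate block, 16 members were called for fluvastatin against PBS, beside 19.8% of all genes. The block gave 7 for MBV against PBS (beside 20.5%) and 0 for MBV against fluvastatin (beside 0%). The comparisons balanced over the sets of library numbers and the combined treatment were not run, because 6 count columns could not be tied to a library. Every member had 410 or more counts in each library.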
